A study of Mus musculus with 32 samples.

Results

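The S100 genes described here are S100a1, S100a4, S100a6, S100a8, S100a9, S100a10, S100a11, S100a13 and S100b, 9 of the 55414 gene identifiers in the count table of whole mouse embryos. They were named as a list, matched to the table by Ensembl identifier, and each has 1 identifier in all 6 groups. They were selected on levels and genotype differences seen earlier in these same libraries, so the differences between genotypes and stages are given for these genes as a description. Their p-values are not printed, and calls and counts of members past a threshold are part of that description. The embryos were WT or Commd10Null, from interbred heterozygotes of the line B6.Cg-Commd10Tg(Vav1-icre)A2Kio/J, in which a Vav1-iCre transgene sits in an intron of Commd10, a gene of the COMMD family. Commd10Null embryos (Null below) carry that insertion on both copies, and so also iCre, driven by a blood-cell promoter, while WT embryos have the intact gene. Embryos were taken out of their yolk sacs at embryonic day 8.5 (E8.5), E9.5 or E10.5, with 10, 9 and 4 WT libraries and 3 Null libraries at each stage. Null embryos were abnormal by eye from the first stage, and those of the later stages showed tissue breakdown and resorption, which limits these groups as a model. Litters are not named in the labels, so the errors below measure the spread between libraries.

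S100 proteins are small calcium-binding proteins of the EF-hand type. Most work as dimers that open a binding surface when calcium rises and then grip a target, often an annexin or a part of the cytoskeleton, and some are also released and act on receptors such as those encoded by Ager and Tlr4. Each member has its own tissues: S100a8 and S100a9 are known from neutrophils, where the proteins pair as calprotectin, S100b from glia, S100a1 from heart muscle, and S100a6, S100a10 and S100a11 from epithelia and connective tissue. In the mouse conceptus, S100a8 transcripts are also known from the decidua, the maternal tissue around the embryo.

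Of the 9 genes, 8 lie on chromosome 3 of GRCm38 in 2 blocks. The first, from 90511034 to 90695721, holds S100a1, S100a13, S100a4, S100a6, S100a8 and S100a9 within 184.7 kb, and the second, from 93520488 to 93564643, holds S100a11 and S100a10 within 44.16 kb, 2825 kb further on. S100b is alone on chromosome 10, from 76253853 to 76261159 on the plus strand, where Dip2a overlaps it on the other strand. S100a1 (minus strand) and S100a13 (plus strand) start back to back, with 42 bases between the annotated genes. Promoter sequence is shown for S100a6, S100a8 and S100a4, which had the highest fold changes at E8.5, for S100a11, whose level in WT embryos was higher at each later stage, and for the interval between S100a1 and S100a13, which had unlike levels. The first 4 are the 100 bases just before the RefSeq start on the plus strand of GRCm38.p6, at chr3:90612794-90612893, chr3:90668971-90669070, chr3:90603670-90603769 and chr3:93520396-93520495, and the last is chr3:90514393-90514434. Capitals mark the TATA box (TATAAA), the GC box (GGGCGG) and the AP-1 motif (TGANTCA), searched for on both strands.
S100a6: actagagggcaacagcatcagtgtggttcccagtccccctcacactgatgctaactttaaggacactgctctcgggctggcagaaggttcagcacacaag
S100a8: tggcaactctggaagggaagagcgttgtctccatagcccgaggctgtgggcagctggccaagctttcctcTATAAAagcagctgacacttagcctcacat
S100a4: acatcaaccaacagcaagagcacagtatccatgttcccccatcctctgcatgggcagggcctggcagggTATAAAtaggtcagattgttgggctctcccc
S100a11: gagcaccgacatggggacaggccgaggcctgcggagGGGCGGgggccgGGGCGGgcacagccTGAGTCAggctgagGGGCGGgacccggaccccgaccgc
S100a1 to S100a13: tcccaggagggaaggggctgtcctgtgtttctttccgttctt
A TATAAA stood at position -30 before S100a8 and -31 before S100a4, and S100a11 had GGGCGG at -64, -52 and -24 with TGANTCA at -38, while the S100a6 window and the 42 bases held none of these motifs. Over the 250 bases before each RefSeq start, 2 of the 8 members with a window held TATAAA, against 12.37% of 32851 windows of all genes. GGGCGG was found in 2 of 8 against 32.74% of all windows, and TGANTCA in 1 of 8 against 6.749%. S100a10 was not in the promoter table used. These matches describe letters and are not known binding sites.

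Depth was even, with 7025188 to 9069005 counts per library and a median of 7971614.5. An identifier without a symbol took 15 to 22.8% of the counts in E8.5 libraries and in all Null libraries, but 2.98 to 8.83% in WT libraries of E9.5 and E10.5. Markers of tissues outside the embryo differed between libraries: 10 yolk sac endoderm genes summed to 270 to 2592 CPM (counts scaled to library size with TMM factors) in WT E8.5 libraries and 2424 to 3788 CPM in Null E8.5 libraries, and to 26.6 to 127 CPM in WT E9.5. The third Null E9.5 library stood apart, with 4255 CPM of these markers and 627 CPM of 10 trophoblast markers, against 150 and 510 CPM and 57.6 and 115 CPM in the other 2. Among WT E10.5 libraries the first also stood apart, with 1169 CPM of yolk sac endoderm markers against 80.4, 69.2 and 78.2 CPM in the others. Its S100a1, at 8.22 CPM, was the highest of that group. In whole embryos, fewer cells of a type and less RNA per cell cannot be told apart.

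S100a6, also called calcyclin, is widely expressed in epithelial and mesenchymal cells, and showed the clearest difference at E8.5. The 10 WT E8.5 libraries ranged from 5.23 to 24.0 CPM with a median of 13.0 CPM. Null E8.5 libraries had 62.4, 105 and 189 CPM. Every Null library lay above every WT library, and the fitted log2 fold change was 3.00 (SE 0.31). At E9.5, WT libraries ranged from 13.5 to 21.9 CPM with a median of 15.3 CPM, and Null libraries had 16.5, 85.2 and 71.3 CPM. The first Null library was therefore within the WT range, and the log2 fold change was 1.82 (SE 0.30). At E10.5, WT libraries had 18.4, 14.5, 16.6 and 17.5 CPM and Null libraries 16.1, 26.5 and 16.5 CPM, which overlapped, with a log2 fold change of 0.26 (SE 0.19). In WT embryos the level hardly moved over the 3 stages, with means of 15.0 ± 6.23, 16.8 ± 3.11 and 16.8 ± 1.69 CPM (SD, n = 10, 9 and 4). By mean level Null E8.5 came first (119 ± 64.6 CPM) and Null E9.5 next (57.6 ± 36.3 CPM; SD, n = 3 each), but these overlapped each other, and Null E9.5 also overlapped the other 4 groups.

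S100a4, known from motile and mesenchymal cells and as a binder of non-muscle myosin, was nearly silent outside Null E8.5. WT E8.5 libraries ranged from 0 to 3.46 CPM with a median of 0.895 CPM, and Null E8.5 libraries had 5.49, 15.0 and 17.5 CPM. The groups did not overlap, and the log2 fold change was 3.75 (SE 0.73). At E9.5 it did not pass the filter on low counts: WT libraries ranged from 0 to 0.408 CPM, and Null libraries had 0.540, 3.31 and 0 CPM, with 26 of the 30 counts in the second library. At E10.5 the 4 WT libraries had 0, 0.340, 0.468 and 0 CPM, and 0 counts were found in the 3 Null libraries, which allows up to 0.123 CPM. From E8.5 to E10.5 the Null level was therefore at least 102-fold lower, from the floor of 3 counts over the group.

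S100a8 and S100a9 encode the subunits of calprotectin, but only S100a8 was measurable. S100a8 ranged from 0 to 3.09 CPM in WT E8.5 libraries, with a median of 0.258 CPM, and had 3.89, 17.2 and 17.8 CPM in Null E8.5 libraries. The groups did not overlap, although the lowest Null library was close to the highest WT library, and the log2 fold change was 3.89 (SE 0.81). At E9.5 a single count was found over the 9 WT libraries and 30 over the Null libraries, 28 of them in the second, whose level was 3.57 CPM against 0 and 0.240 CPM in the others. The ratio of group levels was 91.3 with a 95% exact counting interval of 15.2 to 3724, which does not include the spread between libraries. None of the 3 Null E10.5 libraries had a count, and the level was at least 105-fold lower there than in Null E8.5. S100a9 had 0 counts in all 9 Null libraries, including the 3 of E8.5 that held 287 counts of S100a8, which allows up to 0.135 CPM in that group. Its 13 counts lay in 2 WT E8.5 libraries (0.561 and 0.631 CPM) and 3 WT E10.5 libraries (0.211, 0.113 and 0.117 CPM), and it was not tested.

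**Figure D1:**
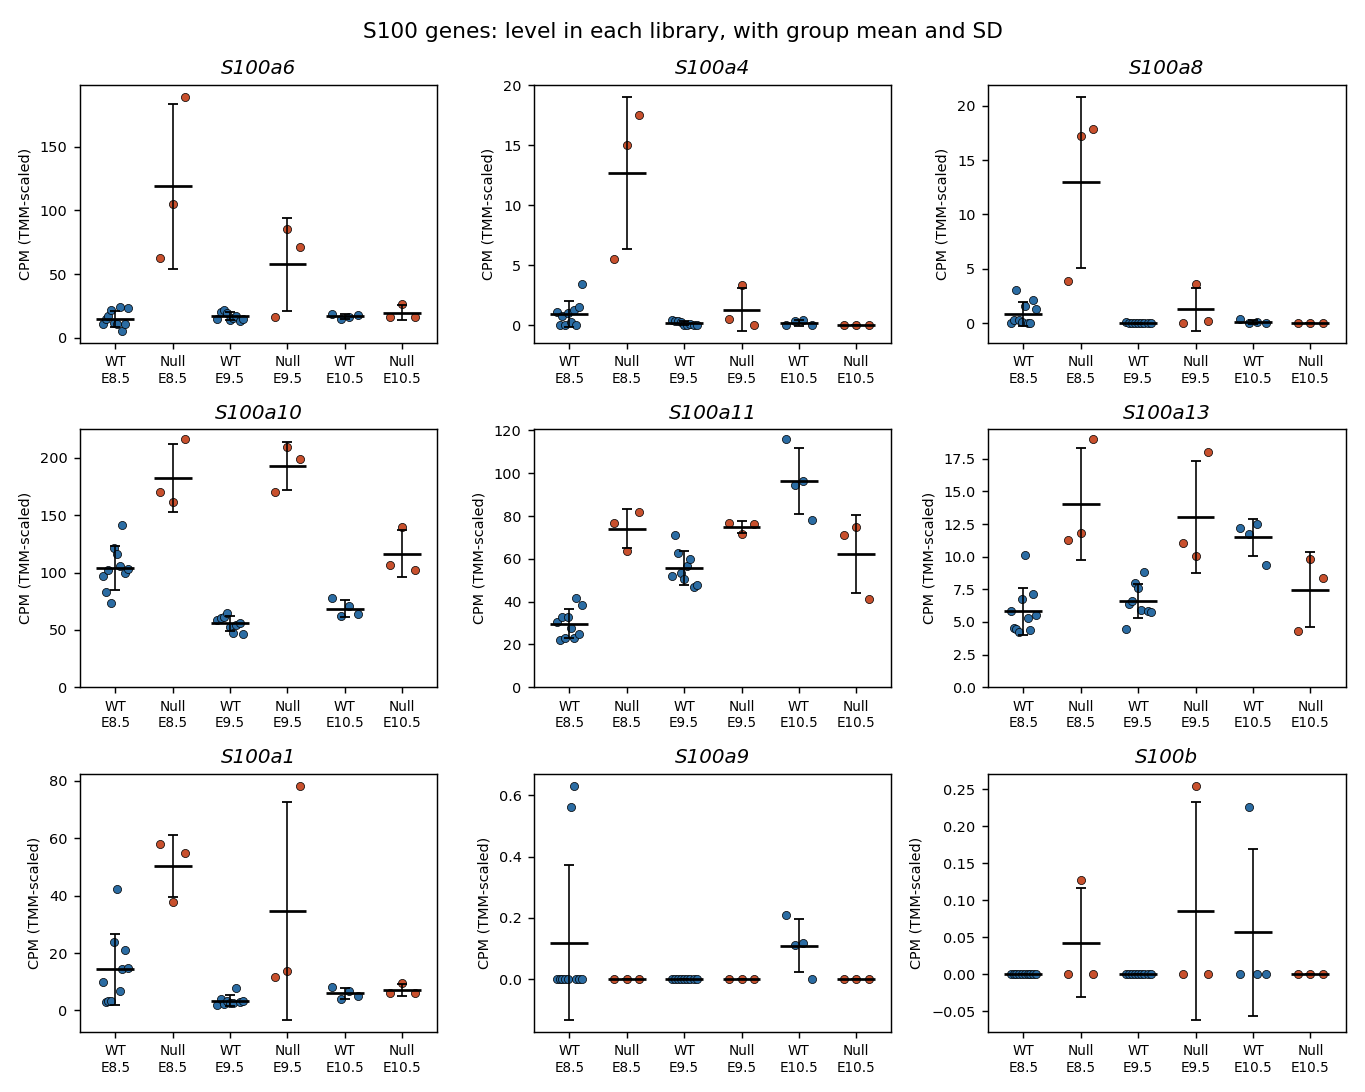
Level of the 9 S100 genes in each of the 32 libraries, in CPM scaled by TMM factors, for WT (blue) and Commd10Null (red) embryos by stage; long bars are group means and error bars the SD. The group means of S100a6, S100a4 and S100a8 were highest in Null E8.5, S100a10 was higher in Null than in WT libraries at all 3 stages, S100a11 was higher at each later stage in WT only, and S100a9 and S100b had 13 and 5 counts in all.

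Markers of other tissues moved with these 3 genes. The 10 genes of the decidua and of uterine natural killer cells, led by Prl8a2, a decidual hormone of the prolactin family, summed to 51.5, 162 and 271 CPM in the Null E8.5 libraries, the same order of libraries as for S100a6, S100a4 and S100a8, and to 2.02 to 48.0 CPM in WT E8.5. All 10 had counts in both groups, 4 passed the filter and all 4 met the thresholds as higher, where 3.22% of all genes did (Prl8a2 with a log2 fold change of 3.20, adjusted p = 0.00477, and Gzmc, a granzyme, with 5.37, adjusted p = 0.00125, both by edgeR). In WT E8.5 the sums had a median of 14.4 CPM, and Prl8a2 alone a mean of 13.8 CPM. In Null E8.5 the median was 162 CPM and the mean of Prl8a2 126 CPM, so the sums rest mostly on this 1 gene. A gene near 0 in WT passes the filter only through Null libraries where it is high, so nothing is read from 4 of 4. At E9.5 the sums were 5.13, 138 and 8.16 CPM in Null libraries, and the second was also the library with the most S100a4, S100a6 and S100a8. WT E9.5 libraries had 0 to 2.30 CPM of these markers. The match was not complete: the seventh WT E8.5 library, at 48.0 CPM of decidual markers, had 24.0 CPM of S100a6 and 0 of S100a8, whereas the first Null library, at 51.5 CPM, had 62.4 and 3.89 CPM, and the third Null E9.5 library combined 8.16 CPM of markers with 71.3 CPM of S100a6. Neutrophil markers did not move with S100a8: the 15 genes summed to 1.08 to 6.92 CPM in WT E8.5 and 1.16 to 9.28 CPM in Null E8.5. Mmp9 led both sums, with means of 3.29 and 2.87 CPM. Of the 15, 7 were at 0 over the 10 WT E8.5 libraries and 10 over the 3 Null E8.5 libraries, where fewer libraries leave more genes at 0. Elane and Camp were at 0 in both groups, Ly6g in Null E8.5 only and Retnlg in WT E8.5 only. The 9 macrophage and leukocyte markers summed to 1.67 to 4.77 CPM in WT E8.5 and 6.70 to 12.2 CPM in Null E8.5, with 2 of 9 at 0 in each. The part of these tissues in the levels of S100a4, S100a6 and S100a8 was not tested.

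**Figure D2:**
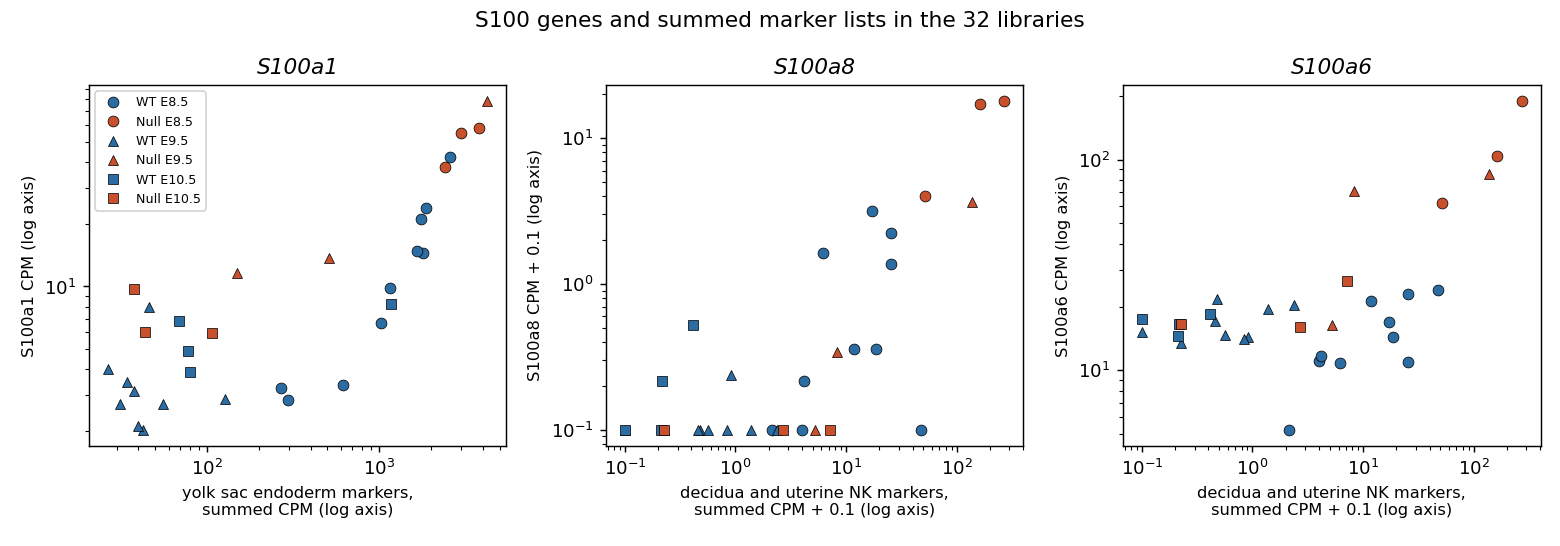
Level of S100a1 against the summed yolk sac endoderm markers, and of S100a8 and S100a6 against the summed decidual and uterine natural killer markers, in the 32 libraries (CPM, log axes, with 0.1 added to S100a8 and to the decidual sums so that zeros can be drawn); colours are genotypes and shapes are stages. The 5 libraries with the most S100a1 had 2424 to 4255 CPM of yolk sac endoderm markers, and Null E8.5 libraries 2 and 3 had the most decidual markers (162 and 271 CPM) and S100a8 (17.2 and 17.8 CPM), while the third Null E9.5 library had 71.3 CPM of S100a6 at 8.16 CPM of decidual markers.

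S100a10 differs from other S100 proteins in that it needs no calcium to hold its partner, annexin A2 (Anxa2), with which it forms a complex at the plasma membrane. It was above the WT range of its stage in all 9 Null libraries. At E8.5, WT libraries ranged from 73.3 to 141 CPM with a median of 103 CPM, and Null libraries had 170, 162 and 216 CPM, a log2 fold change of 0.81 (SE 0.15). At E9.5, WT libraries ranged from 46.1 to 64.8 CPM with a median of 56.4 CPM, and Null libraries had 170, 210 and 199 CPM, a log2 fold change of 1.84 (SE 0.11). At E10.5, WT libraries had 77.9, 62.6, 70.8 and 63.5 CPM and Null libraries 107, 140 and 102 CPM, a log2 fold change of 0.78 (SE 0.12). The gap was thus widest at E9.5, where the WT level was lowest. In order of mean level the groups were Null E9.5 (193 ± 20.6 CPM), Null E8.5 (183 ± 29.5), Null E10.5 (116 ± 20.7), WT E8.5 (104 ± 19.1), WT E10.5 (68.7 ± 7.13) and WT E9.5 (55.7 ± 6.28; SD, n as above), in which the first 2, and Null E10.5 and WT E8.5, did not differ beyond their spread.

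Its partner Anxa2 did not follow it at E8.5. There Anxa2 had 48.9 ± 16.8 CPM in WT (SD, n = 10) and 47.0 ± 9.58 CPM in Null embryos (SD, n = 3), and the log2 fold change was -0.05 (SE 0.25, edgeR adjusted p = 0.92). At E9.5 it was higher in Null embryos, with 166, 222 and 128 CPM against 59.0 ± 10.8 CPM in WT (SD, n = 9), and the log2 fold change was 1.59 (SE 0.17, edgeR adjusted p = 5.01e-06). At E10.5 the log2 fold change was 0.71 (SE 0.15, adjusted p = 0.00161 by edgeR), below the minimum of 1, and no Null library overlapped the WT libraries.

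S100a11, known as calgizzarin and as a partner of annexin A1, was higher at each later stage in WT embryos. WT E8.5 libraries ranged from 22.3 to 41.9 CPM with a median of 29.1 CPM, WT E9.5 libraries from 46.9 to 71.0 CPM with a median of 53.5 CPM, and the 4 WT E10.5 libraries had 116, 94.7, 96.3 and 78.3 CPM. None of the 3 WT stages overlapped another. Null libraries had 76.9, 63.8 and 81.8 CPM at E8.5, 76.7, 71.6 and 76.1 CPM at E9.5, and 71.0, 74.7 and 41.3 CPM at E10.5, which overlapped throughout. The Null embryos thus lay above WT at E8.5 (log2 fold change 1.32, SE 0.17) and E9.5 (0.47, SE 0.12) and below it at E10.5 (-0.61, SE 0.17), without overlap at any stage. Its partner Anxa1 did not pass the filter in the comparison of Null with WT at any stage. At E8.5 it had 2 counts over the 10 WT libraries, both in one library (0.256 CPM), and 54 counts over the 3 Null libraries (0.402, 2.29 and 4.79 CPM), each above every WT library. At E9.5 and E10.5 the groups overlapped, with at most 1.48 CPM in WT and 2.67 CPM in Null libraries.

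S100a13, which in cell culture takes part in the release of fibroblast growth factor 1, was higher in Null embryos at the first 2 stages and lower at the last. WT E8.5 libraries ranged from 4.25 to 10.1 CPM with a median of 5.40 CPM, and Null E8.5 libraries had 11.3, 11.8 and 19.0 CPM, a log2 fold change of 1.28 (SE 0.26) that was 0.98 without the third Null library, below the minimum of 1. WT E9.5 libraries ranged from 4.48 to 8.80 CPM with a median of 6.41 CPM, and Null E9.5 libraries had 11.1, 10.1 and 18.0 CPM, a log2 fold change of 1.03 (SE 0.22). Neither pair of groups overlapped, but without the third Null E9.5 library the value at E9.5 was 0.72, below the minimum of 1. At E10.5 the direction was the opposite and the groups overlapped, with 12.2, 11.8, 12.5 and 9.40 CPM in WT and 4.31, 9.81 and 8.33 CPM in Null libraries, a log2 fold change of -0.59 (SE 0.26).

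S100a1, which in heart muscle binds the calcium pump and the calcium release channel, starts 42 bases from S100a13 on the other strand but varied more. WT E8.5 libraries ranged from 2.85 to 42.2 CPM with a median of 12.2 CPM, and Null E8.5 libraries had 57.9, 37.8 and 54.8 CPM, so that the second Null library lay within the WT range. The log2 fold change of 1.82 (SE 0.55) no longer met the adjusted p of 0.05 without any one of the 3 Null libraries (1.71 to 2.00) or without WT library 1, 7 or 10 (1.75 to 1.83). At E9.5, WT libraries ranged from 2.04 to 7.95 CPM with a median of 2.87 CPM, and Null libraries had 11.6, 13.8 and 78.2 CPM. The groups did not overlap, and the log2 fold change of 3.37 (SE 0.46) was 1.91 without the third Null library. At E10.5, WT libraries had 8.22, 3.85, 6.79 and 4.88 CPM and Null libraries 6.04, 9.69 and 5.97 CPM, a log2 fold change of 0.30 (SE 0.30).

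The level of S100a1 moved in part with the yolk sac endoderm markers. The sixth WT E8.5 library, with the highest WT level of S100a1 (42.2 CPM), had 2592 CPM of these markers, and the second Null E8.5 library, with 2424 CPM, had 37.8 CPM of S100a1. The 3 WT E8.5 libraries with the fewest markers had 2.85, 3.34 and 3.22 CPM of S100a1. Other libraries departed from this: the first and second Null E9.5 libraries had 11.6 and 13.8 CPM of S100a1 at 150 and 510 CPM of markers, whereas the seventh WT E8.5 library had 6.69 CPM at 1030 CPM. All 10 markers had counts in every group. The thresholds were met as higher by 2 of the 10 at E8.5, against 3.22% of all genes, and by 10 of 10 at E9.5, against 9.35% (Amn, a receptor subunit of absorptive endoderm, had log2 fold changes of 1.69, adjusted p = 0.0276, and 6.76, adjusted p = 1.38e-05, by edgeR). Only 6 of the 10 passed the filter when WT E10.5 was compared with WT E9.5. A marker that low in WT E9.5 enters the genotype comparison through Null libraries where it is high, so nothing is read from 10 of 10. Cardiomyocyte markers moved otherwise at E8.5 and E10.5. The 12 genes summed to 45.5 to 1918 CPM in WT E8.5 and 72.0 to 298 CPM in Null E8.5, where S100a1 was higher. Sums at E10.5 were 1256 to 1963 CPM in WT and 5420 to 8107 CPM in Null libraries, where S100a1 overlapped. At E9.5 the WT sums were 1451 to 2061 CPM. The first and second Null E9.5 libraries had more, with 3241 and 2313 CPM, and their S100a1 was also above the WT range. The third Null E9.5 library, with the most S100a1 (78.2 CPM), had 380 CPM. The part of yolk sac endoderm in the level of S100a1 was not tested.

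S100b, a marker of glia and melanocytes, had 5 counts in 3 of the 32 libraries, 1 in Null E8.5, 2 in Null E9.5 and 2 in WT E10.5, and was not tested. Neural crest and glial markers were present in the same libraries, with sums of 290 to 326 CPM in WT E10.5 and 190 to 209 CPM in Null E10.5, so that S100b was not detectable beyond single counts at this depth where Sox10, a factor of neural crest and its glia, had 24.0 ± 3.66 CPM (SD, n = 4) and 11.2 ± 2.67 CPM (SD, n = 3).

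A difference was called where the adjusted p of edgeR was 0.05 or less and the fold change at least 2. At E8.5, 7 of the 9 genes passed the filter, 6 were called higher (all but S100a10; 4 without the third Null library, when S100a1 and S100a13 are lost), where 3.22% of the 13799 genes tested were called higher, and in 6 (all but S100a1) the Null libraries lay above all WT libraries, as in 5.44% of genes. Their median log2 fold change was 1.82 against -0.02 for all genes. At E9.5, 5 passed the filter and 4 were called higher (S100a1, S100a6, S100a10 and S100a13), against 9.35% of 13483 genes, and 4 did not overlap (all but S100a6), against 9.6%, with a median of 1.82 against 0.02. At E10.5, 5 passed the filter and none was called by edgeR or by DESeq2, against 15.3% of 13522 genes, although 3 had an unadjusted p under 0.05, as did 49.8% of genes, and S100a10 (higher) and S100a11 (lower) did not overlap, against 45.5%. Since the genes were listed with these comparisons known, nothing is read from the counts.

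**Figure D3:**
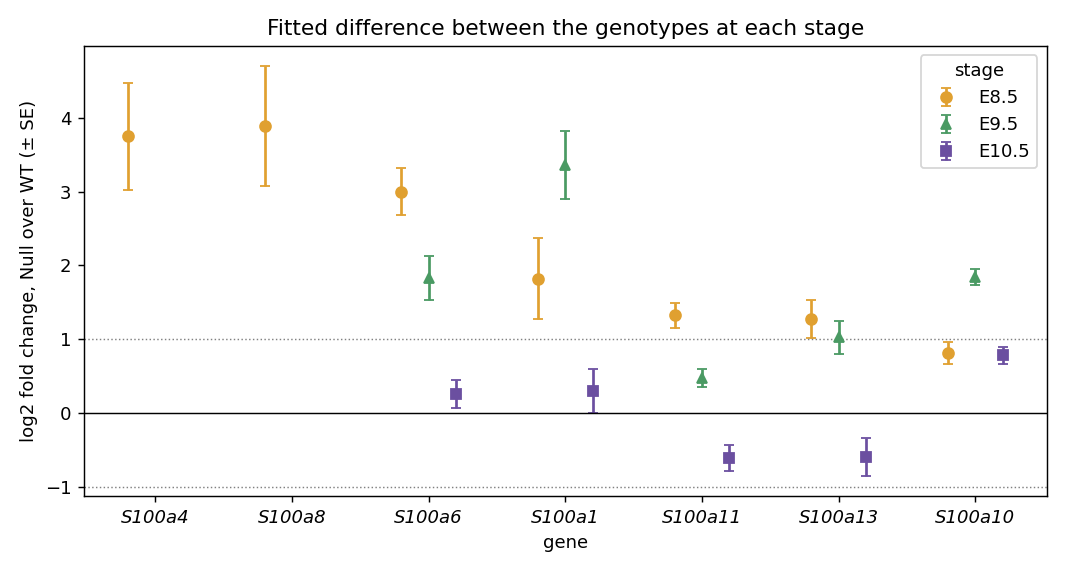
Fitted log2 fold change of Commd10Null over WT embryos (vertical axis, edgeR; error bars are SE) for the S100 genes that passed the filter on low counts, with a symbol for each stage; dotted lines mark a fold of 2 in each direction. All 7 values were above 0 at E8.5, S100a1 and S100a10 were furthest from 0 at E9.5 (3.37 and 1.84), and S100a11 and S100a13 were below 0 at E10.5.

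The genotype difference itself changed between stages for several members. From E8.5 to E9.5 it widened for S100a10 by 0.99 (log2, SE 0.20) and narrowed for S100a11 by 0.89 (SE 0.24), neither of which reached the minimum of 1, and no member was called, by edgeR or by DESeq2, where 5.93% of genes were. An unadjusted p under 0.05 was found for 3 of 7 members and 26% of genes. From E8.5 to E10.5, 4 of 7 members were called lower, where 5.19% of genes were. These were S100a6 (a change of -2.76, SE 0.53), S100a11 (-1.95, SE 0.26), S100a13 (-1.88, SE 0.39) and S100a4. The call of S100a4 says little, since it passed the filter only through E8.5, where it was high and for which it was listed, rests on Null E10.5 libraries without counts, and is lost without the third Null E8.5 library or any 1 Null E10.5 library. The comparisons share the E8.5 libraries, so these changes are not independent of one another.

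Within WT embryos, comparing E9.5 with E8.5 gave 1 call among 5 members tested, S100a1, which was lower at E9.5 (log2 fold change -2.07, SE 0.44), against 5.09% of 12718 genes called lower. S100a10 was lower (-0.93, SE 0.10) and S100a11 higher (0.88, SE 0.12) without overlap, against 12.9% of genes in either direction, while S100a6 (0.14) and S100a13 (0.16) overlapped. S100a8 had 67 counts in the 10 E8.5 libraries and 1 in the 9 E9.5 libraries, a ratio of levels of 61.4 (95% exact counting interval 10.6 to 2460). From E9.5 to E10.5 none of 5 members was called by edgeR or DESeq2, against 4.75% of 13355 genes, although 4 had an unadjusted p under 0.05, as did 37.4% of genes. S100a11 (0.79) and S100a13 (0.80) were higher at E10.5 without overlap, against 12.8%. Within Null embryos, from E8.5 to E9.5 none of 7 members and no gene of 12856 (0%) was called by edgeR, with 2 members and 661 genes (5.14%) at an unadjusted p under 0.05, and 57 genes but no member were called by DESeq2. The 2 members were S100a4 (-3.31) and S100a8 (-3.36), which passed the filter only through E8.5, where they were high and for which they were listed, so that a lower value at E9.5 was to be found. From E9.5 to E10.5 none of 5 members was called by edgeR, against 0.031% of 12905 genes, and S100a1 was called by DESeq2. An unadjusted p under 0.05 was found for 3 of these 5 and for 10.9% of genes. In that step S100a1 (-2.25), S100a10 (-0.72) and S100a13 (-0.79) were lower without overlap, against 19.6%, and without the third Null E9.5 library the value of S100a1 was -0.81.

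**Figure D4:**
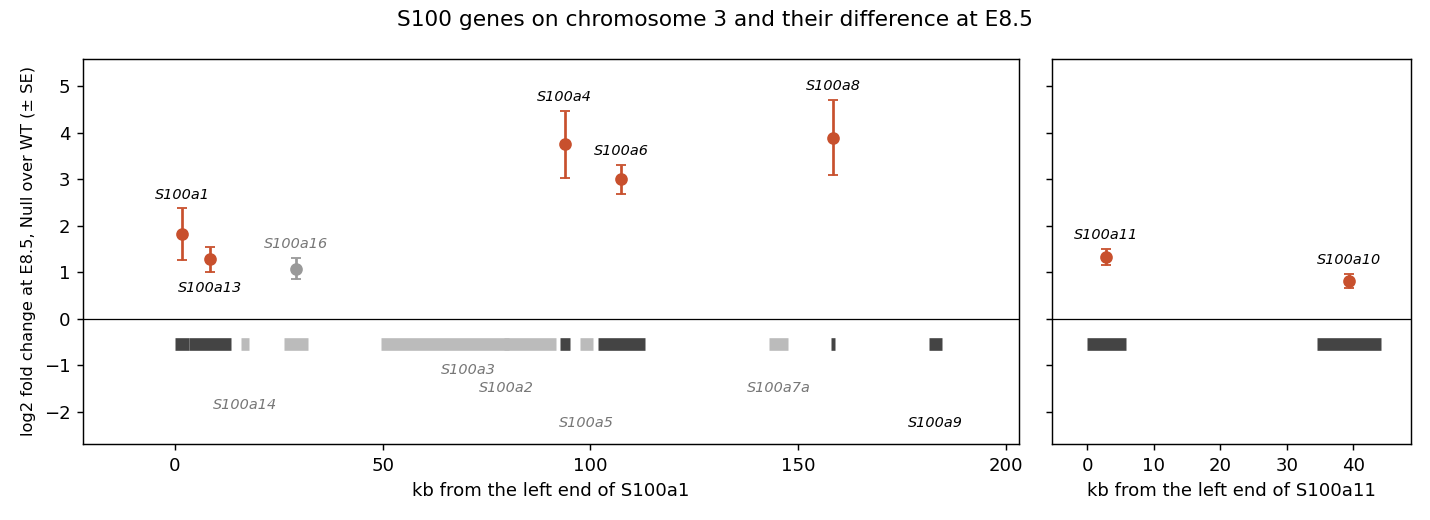
Position of the S100 genes of chromosome 3, in kb from the left end of S100a1 (left) and of S100a11 (right), drawn as bars (dark, members; grey, other S100 genes), and above them the log2 fold change of Commd10Null over WT at E8.5 (points, with SE) of those that passed the filter. Tested genes of the first block ranged from 1.08 for S100a16 to 3.89 for S100a8, and genes between them, such as S100a5 and S100a7a, were too low to test.

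A further 8 S100 genes were matched in the table and only 2 of them passed the filter at E8.5. S100a16, which lies between S100a13 and S100a4, was higher in Null E8.5 libraries (23.4, 17.7 and 15.1 CPM against 6.55 to 13.2 CPM in WT, log2 fold change 1.08, SE 0.22, adjusted p = 0.00596 by edgeR). At E9.5 it did not differ beyond its spread (-0.02, SE 0.40, adjusted p = 0.975), and at E10.5 it was lower in Null libraries (10.6, 15.0 and 8.58 CPM against 22.5, 22.0, 25.5 and 21.1 CPM, -0.98, SE 0.19, adjusted p = 0.000726), just under the minimum of 1. S100g encodes the vitamin D-dependent calcium carrier calbindin-D9k, known from intestine, placenta and yolk sac. WT E8.5 libraries ranged from 10.6 to 107 CPM, Null E8.5 libraries had 168, 102 and 87.7 CPM (log2 fold change 1.18, SE 0.51, adjusted p = 0.133), and at E9.5 WT libraries ranged from 0 to 6.37 CPM and Null libraries had 19.2, 23.8 and 325 CPM (6.46, SE 0.82, adjusted p = 2.75e-05 by edgeR), the last in the library with 4255 CPM of yolk sac endoderm markers. S100g overlaps Ctps2 on the other strand, and the sources used here do not say whether counting used strand. The 6 others had few counts, and of 7 genes of the fused type, which encode an S100 domain in a long epidermal protein, only Tchh was tested (0.38 at E8.5, adjusted p = 0.782).

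Of 17 binding partners and receptors, 1 of 13 tested was called at E8.5 (median -0.08 for the list), where 3.22% of all genes were called higher. It was Anxa11, named after its value was seen (4.87 ± 1.87 CPM in WT, n = 10, and 13.4 ± 5.42 CPM in Null, SD, n = 3, log2 fold change 1.46, adjusted p = 0.0134 by edgeR). At E9.5, 6 of 14 were higher and none lower (median 0.81), where 9.35% of all genes were called higher. At E10.5, 3 of 13 were higher and 1 lower (median 0.58), where 15.3% of all genes were called in either direction. The 3 at E10.5 were Bsg, a receptor of S100a9 protein described in human cells (log2 fold change 1.28, adjusted p = 1.87e-08), and the targets of S100a1 in heart muscle, the release channel Ryr2 (3.05, adjusted p = 9.67e-08) and the pump Atp2a2 (1.00, adjusted p = 2.42e-06), where the cardiomyocyte markers named above were also higher. The receptor gene Ager had 0.925 ± 0.660 CPM in WT and 0.546 ± 0.276 CPM in Null E8.5 libraries (SD, n = 10 and 3, log2 fold change -0.74, adjusted p = 0.581 by edgeR), and Tlr4 was too low to test. Surface ectoderm and epithelial markers were higher as S100a10 was: their 11 genes summed to 469 to 978 CPM in WT E8.5 and 979 to 1214 CPM in Null E8.5, 235 to 352 and 788 to 1424 CPM at E9.5, and 177 to 310 and 620 to 677 CPM at E10.5, with none at 0 in any group. Of these, 2 of 10 tested, 7 of 11 and 5 of 11 were called higher at the 3 stages, with 1 called lower at E9.5. The shares of all genes were 3.22% and 9.35% called higher at E8.5 and E9.5, and 15.3% in either direction at E10.5. Krt8, a keratin of simple epithelia, had log2 fold changes of 0.09 (adjusted p = 0.731), 2.70 (adjusted p = 5.28e-09) and 2.54 (adjusted p = 8.2e-08). Trophoblast markers were higher in Null libraries as well: their 10 genes summed to 46.7 to 88.8 CPM against 26.2 to 48.2 CPM in WT at E8.5, with overlap. Sums of 57.6 to 627 against 11.1 to 19.5 CPM followed at E9.5, and of 30.3 to 39.2 against 9.04 to 14.1 CPM at E10.5. The part of epithelia or trophoblast in the level of S100a10 was not tested.

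Across the 32 libraries, which share stages and genotypes, the genes most like each member were found by Spearman's rho over 12570 genes and are given as a description. S100a10 was most like Furin (0.93), Sqstm1 (0.92) and Dad1 (0.91), but after group means were taken out the rho with Furin was 0.22. S100a1 was most like Foxo4 (0.90), P2rx4 (0.90) and Steap2 (0.89), and the rho with Foxo4 within groups was 0.79. S100a11 was most like Sri (0.88), which encodes the calcium-binding protein sorcin, then Nfia (0.85) and Sirt2 (0.83), and S100a13 most like Cd63 (0.79), Commd3 (0.78) and Rnh1 (0.77). The highest rho was 0.76 for S100a8 (with Cds1), 0.70 for S100a4 (Ly6e) and 0.65 for S100a6 (Gpr146). Among the members, S100a1 and S100a10 had a rho of 0.80 (0.52 within groups) and S100a11 and S100a13 of 0.70 (0.10 within groups). The neighbours S100a1 and S100a13 had 0.51, and 0.66 within groups.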

How the data were processed

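RNA of 32 whole mouse embryo samples was made into 3′-end QuantSeq FWD libraries and sequenced. The authors deposited raw read counts per Ensembl gene, not normalized. In their methods, reads were trimmed by BBDuk and aligned by STAR to mm10 coding regions, and the submitters' processing notes list STAR and Trimmomatic 0.35. How reads were counted, whether by strand and on which annotation, was not given in the sources used here. Of 55414 identifiers, 52081 matched a symbol, 0 value columns lacked a sample, and all identifiers entered library sizes and tests. Samples were grouped by the genotype and stage in their labels. Depth was 7025188 to 9069005 counts, and counting intervals and floors (3 counts per group) cover counting error only.

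Groups were compared in edgeR 4.0.16 (R 4.3.3, quasi-likelihood test, TMM factors, default filter with 10 counts at the median depth and 15 in total) over all genes, with Benjamini-Hochberg adjustment. SE is the log2 fold change over the square root of F. Stage differences of the genotype effect were interactions in 1 model. CPM used TMM factors over all 32 libraries, and rho used log2 CPM with a prior count of 2. DESeq2 1.42.0, other scalings, filters and sample sets were alternatives, with Python 3.11.15 (pandas 2.3.3, matplotlib 3.10.9). The members, lists of markers and partners, and tests were chosen with earlier results of these data known. Named genes were every member, up to 3 genes with the smallest adjusted p of each other list, Anxa1, Anxa2, Ager and Tlr4, and the 3 genes most like each member in rho. Positions are from GENCODE M21 (GRCm38) and promoters from RefSeq (GRCm38.p6), with a window for 8 of 9 members. Replicate numbers did not pair the samples.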

Additional observations from a re-analysis of the deposited data

Results flagged for a closer look

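In groups of 4 to 10 libraries, 5 of 24 pairs of an S100 gene and a group had a library far from the others by Dixon's test at 95%, a test that chance passes in about 1 of 20 groups. S100a1 was 7.95 CPM in the seventh WT E9.5 library, S100a13 was 10.1 CPM in the sixth WT E8.5 library, and S100a4 was 3.46 CPM in the tenth WT E8.5 library. The other 2, S100a8 at 0.136 CPM in the first WT E9.5 library and S100b at 0.226 CPM in the second WT E10.5 library, are 1 and 2 counts.

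The genotype difference differed between stages at an adjusted p of 0.05 or less (interaction in edgeR, without a minimum of the fold change) for 6 of 14 gene and stage pairs, where 11.1% of all genes passed between E8.5 and E9.5 and 18.5% between E8.5 and E10.5. Between E8.5 and E9.5 the log2 change was 0.99 for S100a10 and -0.89 for S100a11. Between E8.5 and E10.5 it was -7.54 for S100a4, -2.76 for S100a6, -1.95 for S100a11 and -1.88 for S100a13. The value for S100a4 rests on the 0 counts of Null E10.5. These genes were listed with earlier results known, so the changes are a description.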

How the results depend on the processing

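No fold change that was called reversed under any alternative. Of 440 member fold changes under settings other than leaving out a library, 416 kept their side of the thresholds, 17 newly passed, 6 no longer passed and 1 moved. The number of members called changed with the minimum of the fold change, filter, scaling, model or test as follows. For Null against WT it was 2 of 5 in place of 0 at E10.5 without a fold minimum, when 42.3% of all genes passed, and 2 in place of 4 at E9.5 with the replicate number as a block, where S100a6 (1.40) and S100a13 (1.18) no longer passed. At E8.5 it was 4 in place of 6 with a stricter filter of 50 counts in 3 libraries, which removes S100a4 and S100a8, 7 without a fold minimum and 5 by DESeq2, and at E9.5 it was 3 without factors, 5 without a filter, without a fold minimum or with all 32 libraries in 1 model, and 3 by DESeq2. For WT E9.5 against E8.5 it was 3 without a fold minimum, 2 with library sizes without factors, 4 without a filter and 3 with all 32 libraries in 1 model, in place of 1. For WT E10.5 against E9.5 it was 3 without a fold minimum, 1 without a filter and 1 with the block, in place of 0. For Null E10.5 against E9.5 it was 1 by DESeq2 and 3 with all 32 libraries in 1 model, in place of 0. For the change from E8.5 to E9.5 of the genotype effect it was 2 without a fold minimum and 1 without factors, in place of 0, and for that to E10.5 it was 3 in place of 4 with the stricter filter. The adjusted p of DESeq2 for S100a1 at E9.5 is not given, and S100a1 at E8.5 no longer passed (1.84). The causes were not tested beyond the loosened criterion itself. Leaving out a library gave 4 to 6 members called at E8.5, 3 to 4 at E9.5 and 0 at E10.5, and 0 to 1 for WT E10.5 against E9.5 (S100a1 without WT E9.5 library 7), for Null E9.5 against E8.5 (S100a1, -1.96, without the third Null E9.5 library) and for the change to E9.5, and 3 to 4 for the change to E10.5. At E8.5, S100a13 was 0.98 without the third Null library. At E9.5 it was below 1 without WT library 1 (0.97) or 9 (1.00), with no filter (0.97), with no factors (0.83) and with all libraries in 1 model (1.00). The change to E9.5 passed for S100a10 without the third Null E8.5 (1.12) or first Null E9.5 library (1.06) and for S100a6 without the second Null E9.5 library (-1.60), and the change to E10.5 of S100a4 no longer passed without the third Null E8.5 library (-7.23) or any Null E10.5 library (-7.54 to -7.53). The number of all genes called at E8.5 was 711, but 180 without the first Null library, 392 without the third, 1191 with the block and 1067 with all libraries in 1 model, and at E9.5 it was 2295, but 568 with the block and 1337 with the stricter filter, which gave 1275 in place of 2071 at E10.5. For Null E9.5 against E8.5 it was 0, but 273 without the third Null E9.5 library and 319 with all libraries in 1 model, and for Null E10.5 against E9.5 4, but 311 by DESeq2 and 883 with all libraries. Same-numbered libraries had correlations of -0.07 to 0.11 in their deviations, so the numbers are only names. Without the most abundant identifier the mean of S100a10 in Null E9.5 was 223 CPM in place of 193, and that of S100a11 86.6 in place of 74.8. The WT E9.5 means rose as well, to 64.3 in place of 55.7 CPM for S100a10 and to 64.4 in place of 55.7 CPM for S100a11. The interactions without each WT library were not run. Depth limits S100a4, S100a8, S100a9 and S100b, whose levels at E9.5 and E10.5 rest on 0 to 30 counts per group.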
